A study of Mus musculus with 6 samples.

Results

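The 10 genes described here encode kinases, ligase parts and steroid-route enzymes, most of which help to set salt transport in the distal nephron. They were chosen by symbol from a list (Wnk1, Wnk2, Wnk4, Stk39, Oxsr1, Klhl3, Cul3, Sgk1, Nedd4l and Hsd11b2), and all 10 were found once each among the 22183 genes of the deposited table. Messenger RNA of mouse kidney tissue was sequenced in 6 libraries. In 3 libraries the mice had been given the empty plasmid pcDNA3 (control), and in 3 they had been given a plasmid meant to overexpress Wnt1, one of the Wnt proteins that cells release to switch on beta-catenin signalling in their neighbours. The labels place all libraries in 1 batch and give no strain, age, sex, injury procedure or time after the plasmid, no promoter for the plasmid and no statement that each library is a separate animal. The p-values therefore reflect only how much these 3 libraries of a group vary, and part of that variation could be technical. The comparison asks how transcripts of the 10 genes differ in kidneys of mice given Wnt1 from those given the vector alone.

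WNK kinases sense chloride and activate the kinases SPAK (Stk39) and OSR1 (Oxsr1), which phosphorylate the sodium-chloride and sodium-potassium-chloride cotransporters of the distal nephron. KLHL3 brings WNK kinases to the CUL3 ubiquitin ligase, which marks them for degradation, and inherited changes in WNK1, WNK4, KLHL3 or CUL3 cause familial hyperkalaemic hypertension. In the aldosterone-sensitive segments, HSD11B2 inactivates glucocorticoids so that the mineralocorticoid receptor answers to aldosterone, SGK1 is induced by that receptor, and NEDD4L is the ubiquitin ligase that SGK1 restrains from removing the epithelial sodium channel.

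Sequences of 3 promoter windows, each 250 bases before to 50 bases after a start listed by RefSeq (GRCm38.p6), are shown for the steroid-induced member and for the 2 members whose fall was called under every setting tried. Of the 10 members, 8 matched this table with 13 windows, because Sgk1 has 6 listed starts. The Sgk1 window on chr10:21993640-21993939 (plus strand) holds the palindromic glucocorticoid and mineralocorticoid response element, searched as AGAACA, any 3 bases and then TGTTCT. The capitals mark that element and a separate half-site TGTTCT. The Klhl3 window is chr13:58113598-58113897 (minus strand) and the Wnk4 window chr11:101260317-101260616 (plus strand), and both are in lower case throughout because none of the motifs searched occurs in them.
Sgk1: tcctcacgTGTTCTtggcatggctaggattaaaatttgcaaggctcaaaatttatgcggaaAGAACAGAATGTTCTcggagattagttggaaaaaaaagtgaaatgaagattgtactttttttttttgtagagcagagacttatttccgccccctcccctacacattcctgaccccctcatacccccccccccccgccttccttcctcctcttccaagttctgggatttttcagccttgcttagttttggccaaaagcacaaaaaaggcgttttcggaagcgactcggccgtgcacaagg
Klhl3: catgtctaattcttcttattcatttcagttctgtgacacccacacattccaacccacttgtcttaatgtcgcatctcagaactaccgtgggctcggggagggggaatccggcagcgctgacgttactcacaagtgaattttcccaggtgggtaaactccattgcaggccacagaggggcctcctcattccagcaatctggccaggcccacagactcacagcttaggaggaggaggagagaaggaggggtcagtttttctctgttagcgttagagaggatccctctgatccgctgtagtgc
Wnk4: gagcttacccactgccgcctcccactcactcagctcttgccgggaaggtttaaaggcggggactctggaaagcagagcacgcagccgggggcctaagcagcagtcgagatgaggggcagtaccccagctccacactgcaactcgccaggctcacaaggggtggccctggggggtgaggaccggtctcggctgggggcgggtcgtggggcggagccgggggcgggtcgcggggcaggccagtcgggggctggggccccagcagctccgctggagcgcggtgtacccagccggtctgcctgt
The palindrome in Sgk1 reads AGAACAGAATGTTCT. It lies inside its window and begins 189 bases before the listed start on which that window was set, and 965 bases before the next listed start. It contains 2 matches to the half-site, 1 on each strand, parted by the bases GAA. Among 32851 windows of the same length, 3 hold the palindrome (0.009%), and 6233 (19.0%) hold the half-site TGTTCT on either strand. The motifs CTTTGAT and CTTTGAA, which TCF/LEF factors of the Wnt pathway can bind, were searched on both strands as well. They occur in 3.73% and 5.13% of all windows, and among the member windows they occur in 2 of the 6 Sgk1 windows. The Wnk4 window was 70.7% G and C with 21 CpG pairs and the Klhl3 window 52.3% with 8, against a median of 52.7% and 7 over all windows. A match is a description of the letters in a window and no measurement of binding.

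Transcripts of Klhl3, Wnk4 and Wnk1 were lower with the Wnt1 plasmid, and the remaining 7 members did not pass the test. Klhl3 fell 3.47-fold, Wnk4 1.85-fold and Wnk1 1.59-fold, and the last of these calls was lost under most alternatives. Neither SPAK nor OSR1 transcripts were called, nor were those of Cul3, Sgk1, Nedd4l and Hsd11b2. All 10 members passed the filter on low counts, so none was left out for a low level. By edgeR's quasi-likelihood test with Benjamini-Hochberg adjustment over 14432 tested genes, 0 members were called higher and 3 lower at an adjusted p under 0.05, and the median log2 fold change of the 10 was -0.22. Over all tested genes 41.1% were called, 22.4% higher and 18.7% lower, and the median log2 fold change was 0.05, and nothing about the members is read from the share called. Over all genes the share called was 39.4% with DESeq2, 41.9% with median-ratio factors, 41.0% with upper-quartile factors, 52.9% with library totals, 34.0% with no filter and 41.4% with a stricter one. It was 51.0%, 50.9% and 40.1% in the limma fits on log2(FPKM + 1), on log2(FPKM + 0.1) and with no filter. Leaving out control replicate 1, 2 or 3 gave 32.6%, 30.8% and 33.4%, leaving out Wnt1 replicate 1, 2 or 3 gave 32.8%, 31.7% and 55.7%, and leaving out both libraries numbered 3 gave 62.5%. The groups did not overlap for 4 of 10 members, against 53.5% of tested genes.

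**Figure D1:**
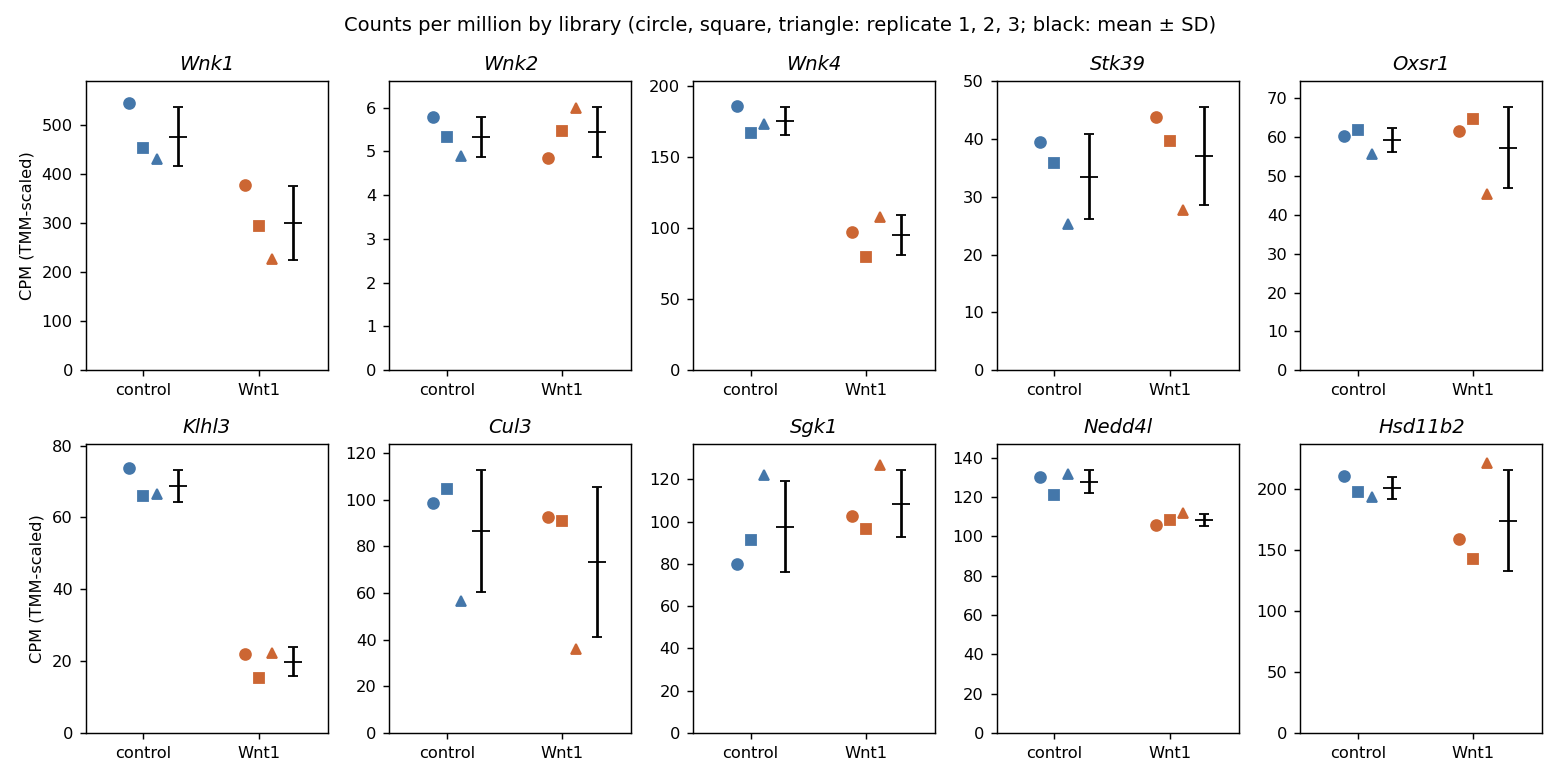
CPM, with TMM factors applied to library totals, for each member in the 3 control and 3 Wnt1 libraries; coloured points are libraries (circle, square and triangle for replicates 1, 2 and 3) and the black bars show mean ± SD. The groups are apart for Wnk1, Wnk4, Klhl3 and Nedd4l, and replicate 3 is the lowest of both groups for Wnk1, Stk39, Oxsr1 and Cul3.

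Libraries held 23585040 to 27218091 expected counts, and TMM factors were 0.848 to 0.879 in controls and 1.12 to 1.19 with Wnt1. Scaling by library totals raised the median log2 fold change of all genes from 0.05 to 0.47, so members are read against that shift. The plasmid's gene did not check the labels, since Wnt1 had 0, 0 and 0 reads in controls and 0, 1 and 0 with the plasmid. Replicate 3 of each group was compared with the other 2 libraries, and replicates 1 and 2 were not examined in this way. Leaving out Wnt1 replicate 3 gave a share called of 55.7%, against 32.8% and 31.7% without Wnt1 replicate 1 or 2. For control replicate 3 it was 33.4%, near the 32.6% and 30.8% without control replicate 1 or 2. Over the tested genes with a known transcript sequence (99.9%), the deviation of replicate 3 from the other 2 libraries had a Pearson correlation across genes with transcript GC content of 0.489 in control and 0.670 with Wnt1, where genes are not independent replicates. Beside the marker counts that follow, 22.4% of all tested genes were called higher and 18.7% lower. Proximal tubule markers were lower in the same libraries (0 higher and 9 lower of 10; summed level 15440 to 15890 CPM in controls and 3254 to 4388 CPM with Wnt1, led by Slc34a1 and Lrp2). Macrophage markers (7 of 7 higher; 192.6 to 234.5 against 1498 to 1803 CPM, led by Lyz2 and C1qa), fibroblast and mural markers (7 of 7 higher; 479 to 628 against 1985 to 3300 CPM, led by Col3a1 and Col1a2) and T cell markers (5 of 5 higher; 3.86 to 5.43 against 10.8 to 14.4 CPM, led by Trac and Cd3g) were higher. Their part in the members' values was not tested, and in bulk kidney tissue fewer cells of a type and less RNA per cell cannot be told apart.

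On the FPKM scale, which divides by transcript length and allows levels of different genes to be compared, Hsd11b2 stood first in control kidneys at 94.3 ± 5.87 (SD, n = 3). Wnk1 followed at 66.3 ± 10.9, Wnk4 at 40.9 ± 2.15, Sgk1 at 34.5 ± 6.69, Nedd4l at 30.0 ± 1.21 and Cul3 at 26.8 ± 8.31. Oxsr1 at 11.1 ± 0.811, Klhl3 at 8.32 ± 0.657 and Stk39 at 8.22 ± 1.92 were lower, and Wnk2 was last at 0.792 ± 0.0316, above only 17.5% of tested genes. The neighbours Wnk4 and Sgk1, Sgk1 and Nedd4l, Nedd4l and Cul3, and Klhl3 and Stk39 lay within their summed SDs of each other. With Wnt1 the first place stayed with Hsd11b2 (109 ± 22.3), Wnk4 moved from the third to the sixth place (28.5 ± 3.86) and Klhl3 from the eighth to the ninth (3.19 ± 0.566). Sgk1 then stood in the third place at 52.0 ± 5.85, close to Wnk1 in the second at 52.4 ± 16.8. In that order Wnk1 and Sgk1, Nedd4l and Cul3, Cul3 and Wnk4, and Oxsr1 and Stk39 lay within their summed SDs of each other.

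Among the WNK kinases, Wnk1 (ENSMUSG00000045962; GRCm38 chromosome 6, 119923969 to 120038672, minus strand) was measured at 545, 454 and 431 CPM in control replicates 1, 2 and 3. With Wnt1 the levels were 378, 294 and 228 CPM. All Wnt1 libraries lay below all controls. The log2 fold change was -0.67 ± 0.20 (standard error; 95% interval -1.13 to -0.20; edgeR adjusted p = 0.0291). The call did not hold under 10 of 16 alternatives. The adjusted p was 0.348 with library totals (log2 fold change -0.24), 0.196 without control replicate 1 (-0.49), 0.129 without control replicate 2, 0.115 without control replicate 3 and 0.0815 without Wnt1 replicate 2. Leaving out Wnt1 replicate 3 gave -0.51 (adjusted p = 0.0294). In kidney Wnk1 is made largely as a short form from an internal promoter that lacks most of the kinase domain, and a value per gene does not part that form from the full-length kinase.

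The deposited counts and FPKM values give, for each gene and library, the transcript length that the authors' scaling used. For Wnk1 it was 6.08, 6.46 and 6.19 kb in controls and 6.61, 6.17 and 7.54 kb with Wnt1, so the longest was in Wnt1 replicate 3. For Klhl3, Stk39 and Hsd11b2 it was constant at 7.15, 3.54 and 1.84 kb, which are the lengths of their longest GENCODE transcripts (7149, 3536 and 1840 bases). It also varied for Wnk2 (5.47 to 6.215 kb), Wnk4 (3.635 to 3.96 kb) and Oxsr1 (4.55 to 4.65 kb). The same held for Cul3 (2.74 to 2.83 kb), Sgk1 (2.375 to 2.47 kb) and Nedd4l (3.62 to 3.72 kb). The FPKM values of Wnk1 and these members, and the order and ratios built on them, therefore rest on lengths that changed between libraries. Their counts do not. This length was looked at after the values had been seen and has no test.

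Wnk4 (ENSMUSG00000035112; chromosome 11, 101260567 to 101277409, plus strand), the kinase best known for control of the distal convoluted tubule, was at 186, 167 and 173 CPM in controls. With Wnt1 it was at 97.7, 79.8 and 107.6 CPM, and the groups were far apart. Its log2 fold change was -0.89 ± 0.14 (95% interval -1.22 to -0.55; edgeR adjusted p = 0.00196), and it was called lower in 16 of 16 alternatives (adjusted p 3.09e-07 to 0.018). The size depended on scaling, with -0.47 under library totals and -0.51 on log2(FPKM + 1).

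Wnk2 (ENSMUSG00000037989; chromosome 13, 49036303 to 49148014, minus strand), a WNK kinase known from the brain, stayed near 5 CPM. It was at 5.79, 5.32 and 4.88 CPM in controls and 4.85, 5.45 and 5.99 CPM with Wnt1, on 107 to 158 counts per library, and the groups overlapped. Its log2 fold change was 0.03 ± 0.18 with a 95% interval of -0.40 to 0.45 (edgeR adjusted p = 0.925), so changes beyond 1.37-fold in either direction lie outside that interval. The neuronal markers listed beside it gave 2 higher and 0 lower of 4 tested, against 22.4% and 18.7% of all genes. Their summed level was 6.98 to 11.1 CPM in controls and 10.3 to 15.1 CPM with Wnt1, led by Map2 and Tubb3. Their part in the Wnk2 value was not tested. Wnk3, the remaining family member, was at 0.454 ± 0.126 and 0.601 ± 0.365 CPM and was not called (log2 fold change 0.42 ± 0.56, edgeR adjusted p = 0.585).

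The kinases that WNKs activate were not called. Stk39 (ENSMUSG00000027030; chromosome 2, 68210445 to 68472268, minus strand), which encodes SPAK, was at 39.5, 35.8 and 25.4 CPM in controls and 43.9, 39.7 and 27.7 CPM with Wnt1. Replicate 3 was the lowest of each group, and the groups overlapped. The log2 fold change was 0.15 ± 0.23 with a 95% interval of -0.37 to 0.66 (edgeR adjusted p = 0.642), and none of the alternatives called it. Oxsr1 (ENSMUSG00000036737; chromosome 9, 119238432 to 119322427, minus strand), which encodes OSR1, was at 60.2, 61.9 and 55.8 CPM in controls and 61.7, 64.8 and 45.5 CPM with Wnt1. Its log2 fold change of -0.05 ± 0.16 (95% interval -0.42 to 0.32; edgeR adjusted p = 0.833) turned positive under scaling by library totals (0.38), where the median of all genes was 0.47, and none of the alternatives called it.

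Of the ligase parts, Klhl3 (ENSMUSG00000014164; chromosome 13, 58000228 to 58113592, minus strand), the substrate adaptor, had the largest change among the members. It was at 73.9, 65.9 and 66.6 CPM in controls and 21.97, 15.2 and 22.3 CPM with Wnt1. The highest Wnt1 library lay far below the lowest control. Its log2 fold change was -1.80 ± 0.18 (95% interval -2.20 to -1.39; edgeR adjusted p = 0.000195), and 16 of 16 alternatives called it lower, with values from -1.91 without both libraries numbered 3 to -1.16 on log2(FPKM + 1).

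Cul3 (ENSMUSG00000004364; chromosome 1, 80264923 to 80340480, minus strand), the ligase scaffold, was at 98.7, 104 and 56.4 CPM in controls and 92.5, 91.0 and 36.1 CPM with Wnt1. Replicate 3 was far below the other 2 libraries in both groups, by -0.84 (control) and -1.34 (Wnt1) on the log2 scale. Its longest transcript was 38.5% G and C, the lowest of the members and under the lower quartile of tested genes (45.0%). That transcript has 4709 bases, against the 2.74 to 2.83 kb behind the FPKM values. The log2 fold change was -0.24 ± 0.38 with a wide 95% interval of -1.12 to 0.64 (edgeR adjusted p = 0.65). Without both libraries numbered 3 it was -0.15 (adjusted p = 0.124). With library totals it turned to 0.19 (adjusted p = 0.711), where the median of all genes was 0.47.

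Members were also compared within each library. The Klhl3 to Cul3 ratio of FPKM values (each plus 0.1) was 0.294, 0.251 and 0.463 in controls and 0.0957, 0.0687 and 0.242 with Wnt1. The mean log2 ratio was lower by -1.48 with Wnt1 (-1.62 ± 0.457 against -3.10 ± 0.941, SD, n = 3 each; exact permutation test, two-sided, p = 0.1, the smallest that 3 against 3 allow; adjusted p = 0.4 over 4 pairs). The groups did not overlap, but control replicate 2 and Wnt1 replicate 3 differed by little (0.251 and 0.242), and with a pseudocount of 1 their log2 ratios overlapped (-1.88 and -1.81; exact permutation p = 0.2). The Wnk1 to Wnk4 ratio was 1.82, 1.52 and 1.499 in controls and 2.17, 2.36 and 1.09 with Wnt1. Wnt1 replicate 3 was below every control and the other 2 Wnt1 libraries above every control (log2 difference 0.14, exact permutation p = 0.8; 0.49 without Wnt1 replicate 3). The Stk39 to Oxsr1 ratio was 0.844, 0.762 and 0.602 in controls and 0.929, 0.793 and 0.788 with Wnt1 (log2 difference 0.20, exact permutation p = 0.4; 0.06 without control replicate 3 and 0.30 without control replicate 1).

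**Figure D2:**
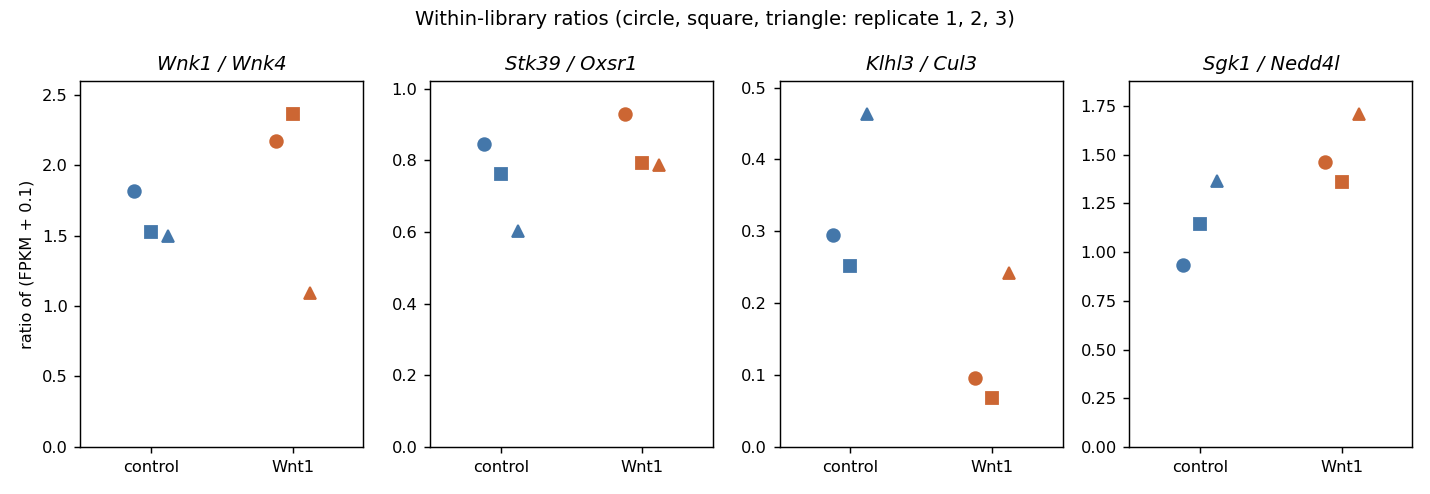
Ratio of FPKM + 0.1 of 2 members within each library, from left to right Wnk1 to Wnk4, Stk39 to Oxsr1, Klhl3 to Cul3 and Sgk1 to Nedd4l, for 3 control and 3 Wnt1 libraries (circle, square and triangle for replicates 1, 2 and 3). Klhl3 to Cul3 lay at 0.251 to 0.463 in controls and at 0.0687 to 0.242 with Wnt1, and in the other panels the groups overlap.

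On the aldosterone side, Sgk1 (ENSMUSG00000019970; chromosome 10, 21882184 to 21999903, plus strand), whose window with the response element is printed above, was at 79.8, 91.5 and 121.9 CPM in controls. With Wnt1 it was at 102.8, 96.5 and 126.6 CPM, and the groups overlapped. Its log2 fold change was 0.15 ± 0.19 with a 95% interval of -0.28 to 0.59 (edgeR adjusted p = 0.555). It was called higher with library totals (0.57, adjusted p = 0.0246) and by limma on log2(FPKM + 1) (0.59, adjusted p = 0.0169), where the medians of all genes were 0.47 and 0.36. Without control replicate 3 it was 0.42 (adjusted p = 0.0615), and without Wnt1 replicate 3 it was 0.03.

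Nedd4l (ENSMUSG00000024589; chromosome 18, 64887705 to 65217828, plus strand), the ligase that removes the sodium channel, was at 130.4, 121 and 131.9 CPM in controls and 105.6, 108.2 and 111.8 CPM with Wnt1. The groups did not overlap, yet the difference was small (log2 fold change -0.24 ± 0.11, 95% interval -0.49 to 0.02, edgeR adjusted p = 0.13). It was called lower without Wnt1 replicate 3 (-0.26, adjusted p = 0.046) and without both libraries numbered 3 (-0.24, adjusted p = 0.0322). Library totals turned it to 0.18 (adjusted p = 0.147), where the median of all genes was 0.47. The Sgk1 to Nedd4l ratio was 0.935, 1.15 and 1.37 in controls and 1.46, 1.36 and 1.71 with Wnt1 (log2 difference 0.40, exact permutation p = 0.2, adjusted p = 0.4). Wnt1 replicate 2 and control replicate 3 were nearly equal, and without control replicate 1 the difference was 0.26.

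Hsd11b2 (ENSMUSG00000031891; chromosome 8, 105518755 to 105523988, plus strand), the enzyme that guards the mineralocorticoid receptor from glucocorticoids, was at 211, 198 and 193 CPM in controls. With Wnt1 it was at 159, 142 and 221 CPM, so replicate 3 was above every control and the other 2 libraries below every control. The log2 fold change was -0.20 ± 0.18 with a 95% interval of -0.61 to 0.20 (edgeR adjusted p = 0.391). Without Wnt1 replicate 3 it was -0.41 (adjusted p = 0.0111), and without both libraries numbered 3 it was -0.44 (adjusted p = 0.00395). With library totals it was 0.21 (adjusted p = 0.284), where the median of all genes was 0.47. Its longest transcript was 57.8% G and C, above the upper quartile of tested genes (54.6%). Replicate 3 deviated from the other 2 libraries by -0.08 (control) and 0.555 (Wnt1) on the log2 scale. The same values were 62.4%, -0.18 and 0.22 for Wnk2, 59.0%, -0.03 and 0.28 for Wnk4, and 51.9%, -0.07 and 0.28 for Klhl3. Stk39 had 49.15%, -0.56 and -0.59, Wnk1 49.0%, -0.21 and -0.55, and Sgk1 48.6%, 0.51 and 0.345. Oxsr1 had 48.3%, -0.13 and -0.47, and Nedd4l 46.1%, 0.07 and 0.065. The part of G and C content in them was not tested. For some members, among them Wnk1 (11330 bases), Nedd4l (7787) and Cul3 (4709), the longest transcript exceeds the length behind the FPKM values. Its G and C content may then not describe the RNA that was counted.

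**Figure D3:**
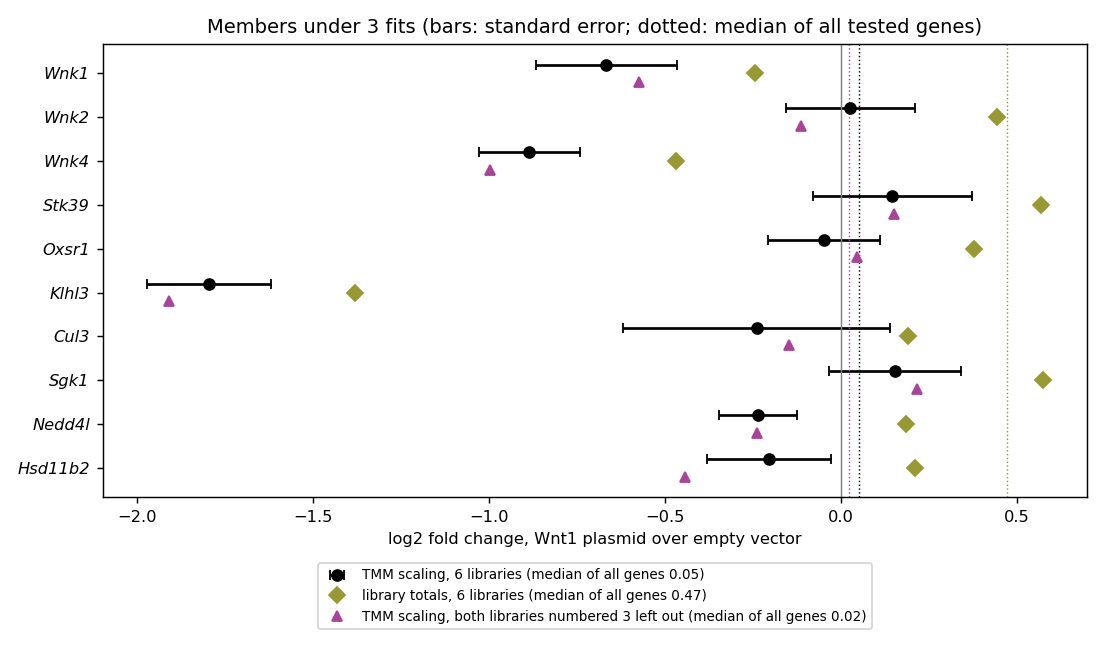
Log2 fold change of each member, Wnt1 plasmid over empty vector, with TMM scaling (black circles, bars are standard errors), with library totals (diamonds) and with TMM scaling without both libraries numbered 3 (triangles); dotted lines are the medians of all tested genes under each fit (0.05, 0.47 and 0.02). Klhl3, Wnk4 and Wnk1 lie left of 0 under all 3 fits, while Oxsr1, Cul3, Nedd4l and Hsd11b2 lie right of 0 with library totals.

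The other genes of the cascade were mostly not called. Of 14 listed partners of the WNK kinases and the cullin ligase, 0 were higher and 2 lower (median log2 fold change -0.08). Over all genes the shares were 22.4% higher and 18.7% lower. Ppp1r1a, an inhibitor of protein phosphatase 1, fell from 263 ± 18.6 to 52.3 ± 22.4 CPM (log2 fold change -2.33 ± 0.32; edgeR adjusted p = 0.00105). Cab39l, a scaffold protein of the MO25 family that activates SPAK and OSR1, fell from 74.7 ± 8.6 to 51.2 ± 6.93 CPM (-0.54 ± 0.15; edgeR adjusted p = 0.0234), a call lost in 9 of 16 alternatives, among them leaving out any 1 control (adjusted p 0.0672 to 0.159). With library totals the list had 0 higher and 1 lower, against 44.0% higher and 8.92% lower of all genes. Without both libraries numbered 3 it had 1 higher and 4 lower, against 32.0% and 30.4% of all genes.

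The transporters and channels that the cascade acts on were mostly lower. Of 13 listed, 1 was higher and 9 were lower (median -0.71), against 22.4% higher and 18.7% lower of all genes. With library totals 2 were higher and 3 lower (median -0.30), against 44.0% and 8.92% of all genes. Slc12a3, the thiazide-sensitive cotransporter NCC, was at 535, 487 and 527 CPM in controls and 318, 183 and 300.5 CPM with Wnt1. Its log2 fold change was -0.95 ± 0.21 (edgeR adjusted p = 0.00799), and -0.54 with library totals (adjusted p = 0.0502). Slc12a1, the loop-diuretic-sensitive cotransporter NKCC2, was at 1539, 1371 and 987 CPM in controls and 661, 350 and 343 CPM with Wnt1 (-1.52 ± 0.30; edgeR adjusted p = 0.00504). The potassium-chloride cotransporter gene Slc12a7 fell (-0.62 ± 0.14; edgeR adjusted p = 0.00999; -0.21 and not called with library totals). Slc12a4, the widely expressed potassium-chloride cotransporter KCC1, rose (0.70 ± 0.17; edgeR adjusted p = 0.0127).

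Genes of the mineralocorticoid route gave 1 higher and 8 lower of 24 (median -0.38), against 22.4% higher and 18.7% lower of all genes. With library totals they gave 5 and 5 (median 0.03), against 44.0% and 8.92% of all genes. Without both libraries numbered 3 they gave 5 and 12, against 32.0% and 30.4% of all genes. Nr3c2, the mineralocorticoid receptor, was at 21.8, 26.5 and 19.6 CPM in controls and 17.9, 16.7 and 11.7 CPM with Wnt1 (-0.55 ± 0.20; edgeR adjusted p = 0.0626). DESeq2 called it lower (-0.57, adjusted p = 0.0394), and so did the fit without both libraries numbered 3 (-0.48, adjusted p = 0.00995). Of the sodium channel subunits, Scnn1a fell from 202.4 ± 17.6 to 139 ± 27.8 CPM (-0.54 ± 0.17; edgeR adjusted p = 0.0345), a call lost in 9 of 16 alternatives, among them leaving out control replicate 1 or 3 or Wnt1 replicate 1 or 2 (adjusted p 0.0844 to 0.106). Scnn1b (0.11 ± 0.19; edgeR adjusted p = 0.678) and Scnn1g (-0.34 ± 0.13; edgeR adjusted p = 0.0702) were not called. Scnn1b was called higher with library totals (0.52, adjusted p = 0.0327) and in 3 of 16 alternatives in all. Scnn1g was called lower in 4 of 16, by DESeq2 (-0.37, adjusted p = 0.0418), with median-ratio factors (-0.36, adjusted p = 0.0452), without Wnt1 replicate 3 (-0.41, adjusted p = 0.0148) and without both libraries numbered 3 (-0.45, adjusted p = 0.0035). The steroid-induced genes Tsc22d3 (0.46 ± 0.30; edgeR adjusted p = 0.272) and Fkbp5 (-0.47 ± 0.22; edgeR adjusted p = 0.132) were not called either, but Tsc22d3 was called higher in 5 of 16 alternatives. These were library totals (0.87, adjusted p = 0.0413), limma on log2(FPKM + 1) (0.83, adjusted p = 0.0365) and on log2(FPKM + 0.1) (0.86, adjusted p = 0.0366), leaving out control replicate 3 (0.87, adjusted p = 0.0339) and leaving out both libraries numbered 3 (0.50, adjusted p = 0.00259).

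The members of the route with the smallest p were further enzymes and regulators. Sgk2, a relative of Sgk1, fell from 229 ± 8.02 to 57.1 ± 9.04 CPM (-2.003 ± 0.15; edgeR adjusted p = 7.52e-05). Prss8, the protease that cleaves and activates the sodium channel, fell from 541 ± 18.8 to 248 ± 47.7 CPM (-1.12 ± 0.16; edgeR adjusted p = 0.000992). Hsd11b1, which regenerates active glucocorticoid and so works against Hsd11b2, fell by 1.52 on the log2 scale (edgeR adjusted p = 0.001), while Hsd11b2 was not called. The deubiquitinase Usp2 fell by 1.17, the sodium pump subunit Atp1b1 by 0.68 (0.26 with library totals, where it was not called) and the pump regulator Fxyd2 by 1.07. The difference between Sgk1 and Sgk2, or Hsd11b1 and Hsd11b2, was not tested. The table's own KEGG term for aldosterone-regulated sodium reabsorption held 39 genes, 3 of them members, of which 33 were tested, 6 higher and 6 lower (median -0.20), against 22.4% higher and 18.7% lower of all genes. With library totals 15 were higher and 1 lower, against 44.0% and 8.92% of all genes. Leaving out both libraries numbered 3 gave 9 higher and 16 lower, against 32.0% and 30.4%. Nothing particular to the term is read from these counts.

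**Figure D4:**
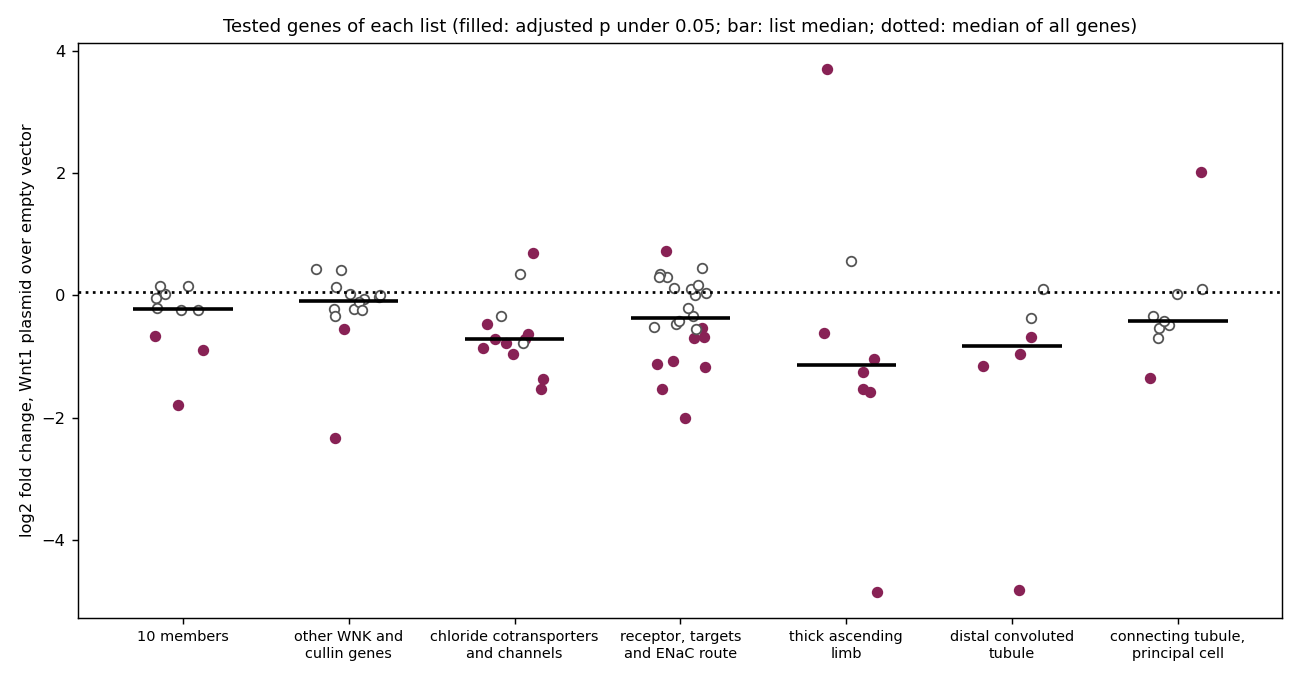
Log2 fold change of each tested gene, Wnt1 plasmid over empty vector, for the 10 members, 3 pathway lists and 3 lists of segment markers; filled points have an adjusted p under 0.05, the bar is the list's median and the dotted line the median of all genes. The medians run from -0.08 in the other WNK and cullin genes to -1.15 in the thick ascending limb list, and the member farthest below 0 is Klhl3 at -1.80.

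With TMM scaling of all 6 libraries, markers of the thick ascending limb, distal convoluted tubule and intercalated cells were mostly lower. Those of the connecting tubule and principal cells were mostly not called. Over all tested genes 22.4% were called higher and 18.7% lower. These shares were 44.0% and 8.92% with library totals, and 32.0% and 30.4% without both libraries numbered 3. Slc12a1 and Slc12a3, given above as transporters, and Scnn1b and Scnn1g, given above as channel subunits, are also markers here. The counts below are therefore not separate from those above. Thick ascending limb markers gave 1 higher and 6 lower of 8 (9585 to 10670 CPM in controls and 2428 to 3807 CPM with Wnt1, led by Umod and Egf), and distal convoluted tubule markers 0 higher and 4 lower of 6 (946 to 1164 and 466 to 874 CPM, led by Slc12a3 and Calb1). Connecting tubule and principal cell markers gave 1 higher and 1 lower of 9 (627 to 722 and 431 to 820 CPM, led by Aqp2 and Aqp3), and without the pair of libraries numbered 3 these became 1 and 6. Intercalated cell markers gave 0 higher and 5 lower of 7 (398 to 418 and 168 to 217.5 CPM, led by Slc4a1 and Aqp6). With library totals, 2 distal convoluted tubule and 3 intercalated markers were lower and none higher. Adrenal cortex markers gave 1 higher and 0 lower of 2 tested (2.92 to 3.28 and 3.26 to 3.89 CPM, led by Star and Mc2r), and Cyp11b2, which makes aldosterone, had 0 counts in all 6 libraries. Podocyte markers gave 0 higher and 3 lower of 5 (617 to 682 and 467 to 568 CPM, led by Podxl and Synpo), endothelial markers 0 and 2 of 6 (449 to 529 and 294 to 404 CPM, led by Pecam1 and Kdr) and liver markers 0 and 2 of 5 (310 to 462 and 229.7 to 311 CPM, led by Apob and Serpina1a). Podocyte markers gave 1 higher and 1 lower, and endothelial markers 0 and 1, with library totals. Leaving out both libraries numbered 3, endothelial markers gave 0 higher and 6 lower and liver markers 0 and 4.

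Set against the summed markers of a segment in the same library, the members differed from one another. The log2 ratio of Klhl3 to the distal convoluted tubule markers was -3.98, -3.88 and -3.83 in controls and -5.31, -4.93 and -4.72 with Wnt1, a difference of -1.09 without overlap. For Wnk4 the same ratio was -2.64, -2.54 and -2.45 in controls and -3.16, -2.54 and -2.45 with Wnt1, a difference of -0.17 with the groups overlapping. For Stk39 it was higher by 0.86 without overlap. Against the thick ascending limb markers, Klhl3 differed by -0.20 with overlap, and Wnk4 was higher by 0.72, Stk39 by 1.76 and Hsd11b2 by 1.39, each without overlap. Against the principal cell markers, Hsd11b2 differed by 0.03 (-1.75 ± 0.166 and -1.72 ± 0.152, SD, n = 3 each), Klhl3 by -1.55 and Wnk4 by -0.63, the last 2 without overlap. These ratios are descriptions with no test, and which cells the transcripts came from was not measured.

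**Figure D5:**
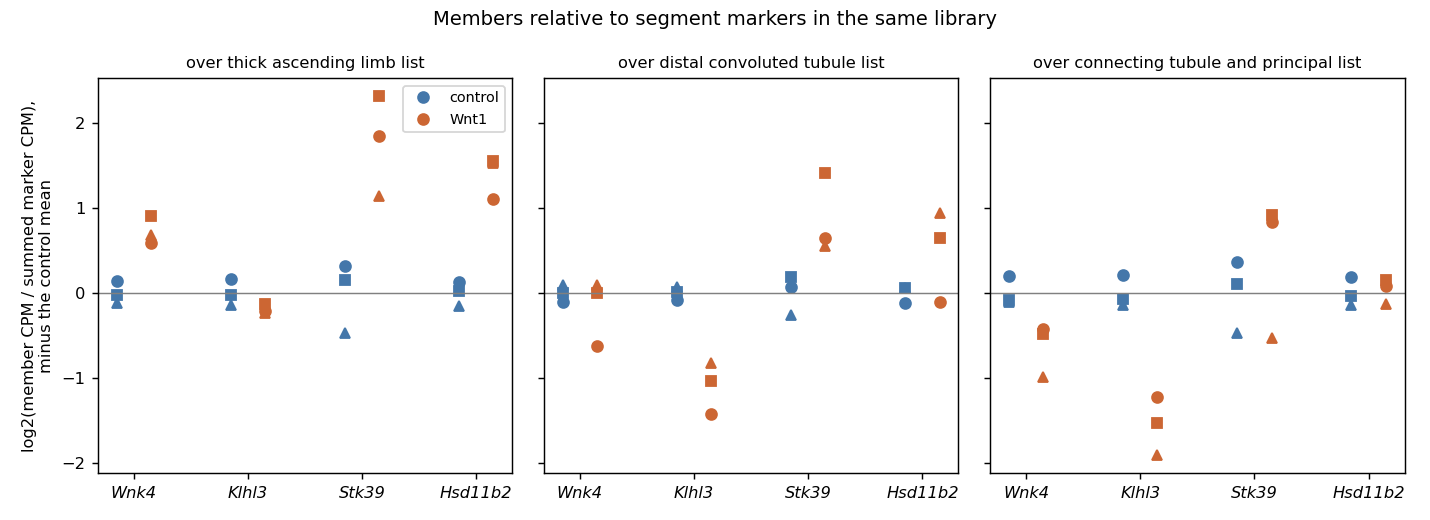
Log2 ratio of the CPM of Wnk4, Klhl3, Stk39 and Hsd11b2 to the summed CPM of 3 marker lists in the same library, each shown minus its control mean; blue points are controls, orange points Wnt1 libraries, with circle, square and triangle for replicates 1, 2 and 3. Klhl3 lies 1.09 below its control mean over the distal convoluted tubule list and Wnk4 0.17 below, and Hsd11b2 stays within 0.2 of it over the principal cell list.

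Pearson correlation of log2 CPM over the 6 libraries was taken among 12114 tested genes with a mean FPKM of at least 1. Gm, Rik, pseudogene and clone-type symbols had been left out of these. The genes whose level followed Wnk4 most closely were Slc34a3 (r = 0.9992), a phosphate transporter of the proximal tubule, Abca4 (0.9991) and Dera (0.9989). Their log2 fold changes were -2.88, -1.86 and -0.82. For Hsd11b2 they were Sppl2b (0.9937), Nudt16l1 (0.993) and Tomm40 (0.9913), with log2 fold changes of -0.16, -0.19 and -0.11. These coefficients rest on 6 libraries that fall into 2 groups and share library depth and composition, and 2218 genes were above 0.9 with Wnk4 and 340 with Hsd11b2, so they are a description with no test.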

How the data were processed

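Kidney messenger RNA was compared between 3 empty-vector and 3 Wnt1-plasmid libraries. Per the labels' protocols, RNA was enriched on oligo(dT) beads and prepared with the NEBNext Ultra kit for an Illumina NovaSeq instrument. The submitters' processing notes name fastp 0.18.0, Bowtie2 2.2.8, HISAT2, StringTie 1.3.1, RSEM and mm10; their roles, the annotation and any use of strand were not given in the sources used here. Expected counts and FPKM values per gene and library were deposited by the authors. Of the expected counts 9.02% were not whole (tolerance 1e-06), and all were rounded.

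The tests on counts used edgeR 4.0.16 under R 4.3.3 (filterByExpr, TMM, robust quasi-likelihood test, two-sided, Benjamini-Hochberg over all tested genes, threshold 0.05), tested on simulated data first. Standard errors derive from the coefficient and F statistic. Alternatives used DESeq2 1.42.0, limma 3.58.1 on log2(FPKM + 1) and log2(FPKM + 0.1), other scalings and filters, and leaving out libraries. Ratios were tested with SciPy 1.17.1. Libraries numbered in record order are not paired. The members, lists and alternatives were chosen with earlier results of these data known. Some genes that the naming rule picks are not reported here. All members are named, with fixed pathway genes, up to 6 called genes of each pathway list with the smallest p, the 2 most abundant markers of each list, and the 3 genes most correlated with Wnk4 and Hsd11b2. GRCm38 coordinates and transcript GC content come from GENCODE M21. Intervals cover the model's spread between libraries only.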

Additional observations from a re-analysis of the deposited data

How the results depend on the processing

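Klhl3 and Wnk4 were called lower in all 16 alternatives and Wnk1 in 6. The count of members called lower was 3, against 18.7% of all genes. It ranged from 2 to 5 when single libraries were left out. The 5 came without Wnt1 replicate 3, where 3977 of 14622 genes were lower. Without both libraries numbered 3 it was also 5, against 30.4% of all genes. Nothing about the members is read from these counts. The count called higher was 0, against 22.4% of all genes. It was 1 with library totals, against 44.0%, and 1 in each of the 3 limma fits. Over all 14432 tested genes, 3239 were higher and 2697 lower. Library totals gave 6348 and 1288. Of 12520 genes, limma gave 5144 and 1238 on log2(FPKM + 1) and 5139 and 1234 on log2(FPKM + 0.1). With no filter it gave 5949 and 1273 of 17996. Leaving out both libraries numbered 3 gave 4664 and 4432, and single libraries 2681 to 4165 and 1797 to 3977. Signs of uncalled differences turned. Wnk2 had -0.003 by DESeq2, -0.11 without both libraries numbered 3 and -0.052 to 0.15 without single libraries. Oxsr1 had 0.056 with upper-quartile factors, 0.38 with library totals, 0.028 with no filter, 0.34 by limma on log2(FPKM + 1) and by limma with no filter, 0.36 on log2(FPKM + 0.1), 0.046 without both libraries numbered 3 and -0.15 to 0.091 without single libraries. Cul3 had 0.19 with library totals, 0.11 by limma on log2(FPKM + 1) and on log2(FPKM + 0.1) and by limma with no filter and -0.44 to 0.084 without single libraries. Nedd4l had 0.18 with library totals, 0.19 by limma on log2(FPKM + 1) and by limma with no filter and 0.20 on log2(FPKM + 0.1). Hsd11b2 had 0.21 with library totals and 0.19 by limma on log2(FPKM + 1) and on log2(FPKM + 0.1) and by limma with no filter. Scnn1b had -0.071 without both libraries numbered 3 and -0.10 to 0.27 without single libraries. Scnn1g had 0.080 with library totals, 0.075 by limma on log2(FPKM + 1) and by limma with no filter and 0.078 on log2(FPKM + 0.1). The cause was not tested. Leaving out single libraries put the log2 Wnk1 to Wnk4 difference between -0.063 and 0.49. No paired analysis was possible because replicate numbers follow record order and the labels link no library of one group to one of the other. Wnk2 rests on 107 to 158 counts.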
